A study of Mus musculus with 7 samples.

Results

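Glutathione transferases couple the tripeptide glutathione to reactive molecules such as lipid aldehydes, and some of them also reduce peroxides or disulfides. 10 genes of this enzyme group were followed in mouse lens epithelium, 1 of the alpha class (Gsta4), 3 of the mu class (Gstm1, Gstm2, Gstm5), and 1 each of the pi (Gstp1), omega (Gsto1), theta (Gstt1) and kappa (Gstk1) classes, with 2 membrane-bound enzymes (Mgst1, Mgst3). They were chosen by symbol: every probe set, a group of short probes summarised into 1 signal, whose only annotated gene was one of the 10. That gave 16 of 45037 probe sets, and the 10 genes stood among 18193 genes measured. All 16 were measured in all 7 lenses. The lens holds glutathione at a very high concentration and uses it to keep its long-lived proteins reduced, and the transferases draw on that same pool.

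The samples were 28-day-old SPARC-null (KO) and wild-type (WT) mice of 1 litter, both on a C57Bl/6 background. SPARC is a matricellular protein that binds collagen, and the study compared lens epithelium with and without it. KO lenses were 1L and 1R, both eyes of animal 1, with 4L and 7L, and WT lenses were 2L, 5L and 6L, each lens being named by its animal and eye and measured on an array of its own. Animal 7 was male and the other 5 animals female, so sex cannot be told apart from animal 7. The null allele is in all cells of the body, so the eye lacked SPARC outside the lens too. Both eyes of animal 1 were averaged into a single value, which left n = 3 animals in each group. Epithelial cells had been cut from stained sections by laser capture and their RNA amplified in a pair of cycles.

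Sparc, the deleted gene, gave deposited signals of 8.14 to 70.5 in KO lenses and 27370.5 to 49971.5 in WT lenses at its brightest probe set. Another probe set gave the same picture, and a dim one ran from 84.96 to 129 in KO and from 9.25 to 118 in WT lenses and overlapped. Measured markers of lens epithelium other than Foxe3, of lens fibres and of rods were all above the bacterial controls described below. Pax6, a transcription factor that marks lens epithelium, ran from 3817 to 7748 in KO lenses and from 4569 to 6834 in WT lenses. Foxe3, another such factor, overlapped the controls, from 11.52 to 84.1 in KO and from 40.2 to 118 in WT. Mip, the water channel of lens fibres, ran from 14535 to 27169 in KO and from 18490 to 28472 in WT. Gnat1, the transducin of rod photoreceptors, ran from 13063 to 20554 in KO and from 11809 to 21206 in WT. In bulk material of this kind, fewer cells of a type and less RNA per cell cannot be told apart. The ratio of Gapdh signal at its 3′ end over its 5′ end, lower where RNA is more intact, ran from 9.88 to 15.9 in KO and from 3.75 to 15.9 in WT, lowest in 2L.

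Promoter sequences of 9 of the 10 genes were found in RefSeq (build GRCm38.p6), each window running from 250 bases before to 50 bases after the start of the transcript. 4 are shown. Gstm1 and Gstm2 had the most similar lens-to-lens pattern among the soluble transferases, Gstm5 lies in the same cluster on chromosome 3 and followed them less closely, and Gstp1 had almost the same mean in both groups. Capitals mark matches, on either strand, to the antioxidant response element core TGACNNNGC, through which NRF2 acts, to the AP-1 site TGAGTCA, and to the TATA box TATAAA. The Gstm1 window is chr3:108017769-108018068 on the minus strand, the one of its 2 annotated starts that holds a match. Those of Gstm2 and Gstm5 are chr3:107986371-107986670 on the minus strand and chr3:107895604-107895903 on the plus strand, and that of Gstp1 is chr19:4037863-4038162 on the minus strand.
Gstm1: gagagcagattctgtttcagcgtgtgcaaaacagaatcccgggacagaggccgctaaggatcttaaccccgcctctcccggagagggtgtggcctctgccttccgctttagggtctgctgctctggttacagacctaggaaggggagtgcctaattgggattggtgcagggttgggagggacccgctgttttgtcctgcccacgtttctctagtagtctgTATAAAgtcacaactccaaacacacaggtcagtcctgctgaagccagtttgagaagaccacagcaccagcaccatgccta
Gstm2: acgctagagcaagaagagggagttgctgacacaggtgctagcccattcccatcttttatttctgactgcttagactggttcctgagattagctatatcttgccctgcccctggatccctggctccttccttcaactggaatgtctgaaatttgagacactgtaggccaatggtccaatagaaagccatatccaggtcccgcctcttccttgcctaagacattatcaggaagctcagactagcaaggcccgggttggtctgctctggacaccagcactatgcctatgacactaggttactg
Gstm5: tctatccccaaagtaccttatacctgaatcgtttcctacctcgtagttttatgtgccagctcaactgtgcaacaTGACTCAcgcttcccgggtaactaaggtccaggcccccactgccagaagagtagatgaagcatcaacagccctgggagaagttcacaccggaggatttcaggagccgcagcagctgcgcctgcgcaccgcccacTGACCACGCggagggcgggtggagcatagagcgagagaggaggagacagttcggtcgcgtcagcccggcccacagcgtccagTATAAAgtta
Gstp1: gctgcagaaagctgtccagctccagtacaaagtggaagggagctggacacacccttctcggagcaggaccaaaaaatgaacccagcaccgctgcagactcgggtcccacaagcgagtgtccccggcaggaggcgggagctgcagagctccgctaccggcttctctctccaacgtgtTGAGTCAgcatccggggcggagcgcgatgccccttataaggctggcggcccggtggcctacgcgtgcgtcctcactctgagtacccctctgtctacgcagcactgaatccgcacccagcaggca

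The antioxidant response element core was present in the windows of 2 of the 9 genes, Gstm5 and Mgst1, and in 12.4% of all 32851 promoter windows. Here and below a gene counts if any of its windows holds a match, while the shares are of single windows. The 9 genes had 11 windows. The AP-1 site was present for Gstm5 and Gstp1, and in 5.2% of all windows. The TATA box letters were present for Gstm1 and Gstm5, and in 13.6% of all windows. The Gstm1 match, at bases 221 to 226 of its window, lay before the start of the transcript. That of Gstm5, at bases 291 to 296, lay after it. No printed match overlapped another. The Gstm2 window held none of the 3. A match is only a run of letters, and the windows cover no distant elements.

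No glutathione transferase passed the test for a difference between KO and WT. In limma, a linear model fitted to all probe sets with Benjamini-Hochberg adjustment, the adjusted p was 0.99988 for all 16 probe sets, where 3 of 45037 probe sets (0.00666%) passed 0.05. Among the 3 past this threshold were the brightest Sparc probe set (limma adjusted p = 3.4e-06) and another of Sparc (limma adjusted p = 1.1e-05). Beneath that threshold, 5 of the 16 had an unadjusted p under 0.05, all with lower values in KO (Gsta4, 2 probe sets of Gstm1, Gstm2 and 1 of Gsto1). Over all probe sets 1.81% were lower in KO at that unadjusted p. At the same p 0 of the 16 were higher, against 1011 of all 45037 probe sets. At the brightest probe set of each gene, 8 of 10 genes had lower values in KO and the median of the 10 log2 differences was -0.35, whereas over all genes 54.4% were lower and the median was -0.03. The members had been picked with earlier results of these data known, so these counts describe the 10 genes and are no evidence about transferases as a group.

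**Figure D1:**
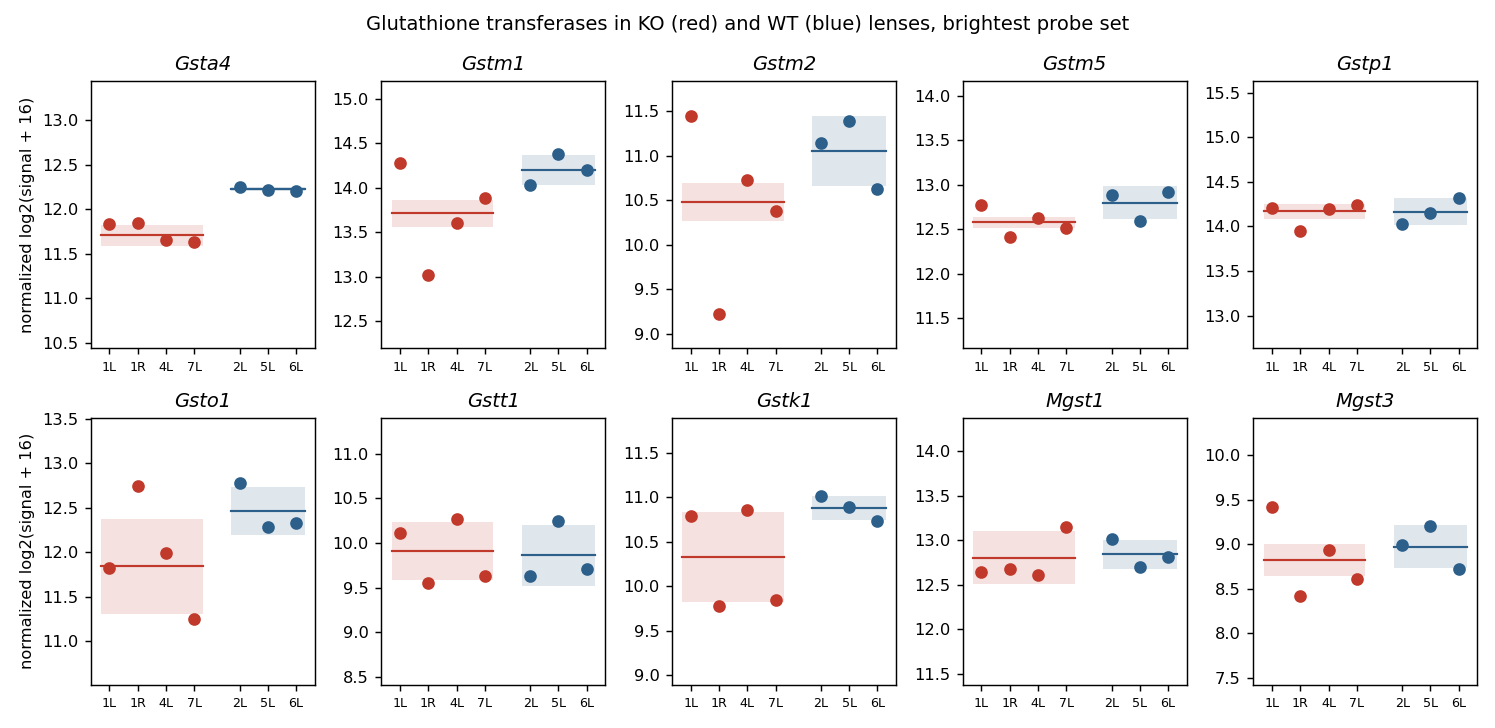
Normalized log2(signal + 16) of the brightest probe set of each gene in the KO lenses 1L, 1R, 4L and 7L (red) and the WT lenses 2L, 5L and 6L (blue); lines and bands are the mean ± SD over 3 animals, after 1L and 1R were averaged. Each panel spans 3 log2 units. For Gsta4 every KO lens lies below every WT lens, while for the other 9 genes the groups overlap.

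Gsta4 is the alpha class enzyme best known for conjugating 4-hydroxynonenal, a product of lipid peroxidation. Its deposited signals were 3624 (1L), 3602 (1R), 3207 (4L) and 3165 (7L) in KO lenses, and 4577 (2L), 4854 (5L) and 4851 (6L) in WT lenses. Each of the 4 KO lenses lay below each WT lens, and both eyes of animal 1 gave almost the same value. On the normalized log2 scale Gsta4 was at 11.70 ± 0.12 in KO and 12.22 ± 0.02 in WT mice (± SD, n = 3), a difference of -0.52 (SE 0.17), or 1.43-fold lower in KO (limma, unadjusted p = 0.0142, adjusted p = 0.99988). It was the only 1 of the 16 probe sets whose groups did not overlap, a separation in this direction that 2.76% of all probe sets showed. None of the 16 was separated the other way, as 2.56% of all probe sets were. The difference was -0.61 to -0.45 under all 17 alternative settings, and its unadjusted p was 0.0096 to 0.0474. Gsta4 has 1 probe set, so no other probe set checks it.

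Mu class enzymes conjugate a wide range of electrophiles. Gstm1 had deposited signals of 20733 (1L), 8309 (1R), 13904 (4L) and 13738 (7L) in KO lenses, and 12730 (2L), 24115 (5L) and 21871 (6L) in WT lenses at its brightest probe set. Its lowest lens was 1R and 1L lay above 2L, so the groups overlapped. The mean was 13.71 ± 0.15 in KO and 14.20 ± 0.17 in WT mice (± SD, n = 3; log2 difference -0.49, SE 0.19, limma unadjusted p = 0.0253). The next probe set gave -0.45 (SE 0.19), and the dimmer ones gave -0.35 (SE 0.26) and -0.11 (SE 0.35). The WT lens 2L was lowest of the 3 WT lenses at all 4 Gstm1 probe sets, in deposited signals and also after quantile normalization. Before normalization the array of 2L also had the lowest top signal, 28328, against 42153 to 53056 in the other 6 lenses. The part of that array in these values was not tested.

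Gstm2, a near neighbour of Gstm1, had deposited signals of 2725 (1L), 586 (1R), 1643 (4L) and 1345 (7L) in KO lenses, and 2281 (2L), 2703 (5L) and 1536 (6L) in WT lenses. The highest and the lowest of all 7 lenses were the eyes of 1 animal, 1L and 1R. The mean was 10.48 ± 0.21 in KO and 11.05 ± 0.39 in WT mice (± SD, n = 3; log2 difference -0.57, SE 0.24, limma unadjusted p = 0.0414). With 1L standing alone for animal 1 the difference was -0.20, and with 1R alone it was -0.94. Those of Gstm1 were -0.28 and -0.70 in the same settings. Gstm5 had a smaller difference, at 12.58 ± 0.06 in KO and 12.80 ± 0.18 in WT mice (log2 difference -0.22, SE 0.18, 95% interval -0.62 to 0.18). Its lenses ran from 5345 to 7123 in KO and from 6424 to 8164 in WT.

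All 7 mu class genes of the cluster on chromosome 3 had a named probe set, and their order by RefSeq (GRCm38.p6) is Gstm5, Gstm7, Gstm6, Gstm3, Gstm2, Gstm1 and Gstm4. Those outside the 10 genes were set beside them after their values had been seen. The log2 difference was -0.54 (SE 0.21, unadjusted p = 0.0268) for Gstm7, -0.58 (SE 0.33) for Gstm6, -0.17 (SE 0.25) for Gstm4 and 0.17 (SE 0.38) for Gstm3. So 6 of 7 had lower values in KO, and none passed in limma (adjusted p = 0.99988). Lens 1R lay below lens 1L at all 7 genes, by 1.29-fold at Gstm5 to 4.67-fold at Gstm2. Over all genes, 9501 of 18193 were higher in 1L than in 1R. Mu class transcripts are alike in sequence, and 2 of the 4 Gstm1 probe sets are of the type (x_at) that holds probes shared with other transcripts, so signal of one gene in the probe set of another cannot be told apart here.

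**Figure D2:**
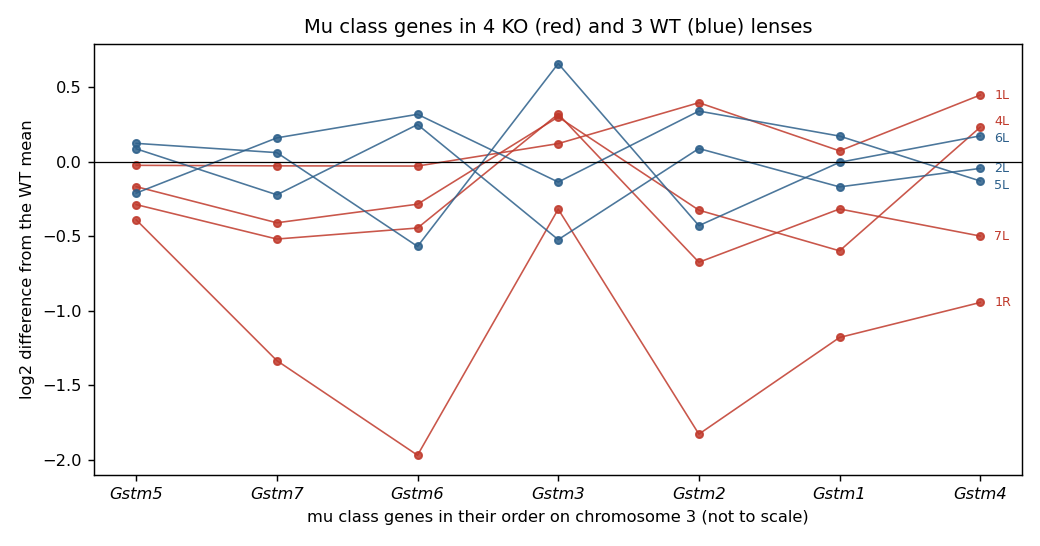
Log2 difference of each lens from the WT mean for the 7 mu class genes, in their order on chromosome 3 (spacing not to scale), at the brightest probe set; red lines are KO lenses and blue lines WT lenses. Lens 1R is the lowest of the 7 lenses at Gstm5, Gstm7, Gstm6, Gstm2, Gstm1 and Gstm4, and lens 1L, from the same animal, lies within the range of the WT lenses or above it at all 7.

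Gsto1 is the omega class enzyme, which reduces dehydroascorbate and protein-bound glutathione rather than conjugating electrophiles. At its brightest probe set the signals were 3576 (1L), 6847 (1R), 4098 (4L) and 2446 (7L) in KO lenses, and 6243 (2L), 5165 (5L) and 5325 (6L) in WT lenses. Lens 1R lay above the WT lenses in these signals and just below 2L after normalization, and 1L, 4L and 7L lay below every WT lens, so the groups overlapped. The mean was 11.84 ± 0.53 in KO and 12.46 ± 0.27 in WT mice (± SD, n = 3; log2 difference -0.62, SE 0.28, limma unadjusted p = 0.0504). Without KO animal 7, the male, it was -0.32, and with 1R alone for animal 1 it was -0.47.

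The other Gsto1 probe set had the largest difference of the 16, -1.12 (SE 0.34, limma unadjusted p = 0.00858, adjusted p = 0.99988). Its signals were 2702 (1L), 5080 (1R), 2595 (4L) and 1732 (7L) in KO lenses, and 7564 (2L), 4559 (5L) and 4636 (6L) in WT lenses. Here 1R lay between the WT lenses, so the groups again overlapped. The log2 difference between the 2 Gsto1 probe sets on each array was -0.64 to -0.38 in KO lenses and -0.18 to 0.34 in WT lenses, with no overlap. Over animals it averaged -0.51 ± 0.12 in KO and -0.01 ± 0.30 in WT (SD over 3 animals, p = 0.1 by a two-sided exact permutation test, the smallest that 3 animals against 3 can give, and 0.4 after adjustment over the 4 pairs of probe sets compared for Gsto1 and Gstm1). The highest value was that of 2L, the lens with the lowest Gapdh ratio. The other WT lenses were at -0.17 (5L, Gapdh ratio 9.06) and -0.18 (6L, Gapdh ratio 15.9). The part of RNA integrity in these values was not tested. The brightest Gsto1 probe set is also of the x_at type, and the part of shared probes was not tested.

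Gstk1, the kappa class enzyme of mitochondria and peroxisomes, had signals of 1715 (1L), 859 (1R), 1806 (4L) and 926 (7L) in KO lenses, and 2101 (2L), 1894 (5L) and 1675 (6L) in WT lenses. The KO lenses formed a high pair, 1L and 4L, within the WT range and a low pair, 1R and 7L, far below it. The mean was 10.33 ± 0.51 in KO and 10.88 ± 0.14 in WT mice (± SD, n = 3; log2 difference -0.55, SE 0.27, limma unadjusted p = 0.0661). It was -0.31 without KO animal 7 and -0.82 without KO animal 4.

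The remaining 4 genes had almost the same mean in both groups, but the intervals leave room for differences in either direction. Gstp1, the pi class enzyme, which also binds the stress kinase JNK, ran from 15585 to 21376 in KO and from 12629 to 23715 in WT lenses (log2 difference 0.0025, 95% interval -0.39 to 0.40). Its probe set may also take signal from Gstp2, a nearly identical neighbour. Mgst1, a membrane enzyme of the endoplasmic reticulum and outer mitochondrial membrane that also reduces lipid peroxides, ran from 6484 to 8251 in KO and from 6916 to 7566 in WT (log2 difference -0.04, 95% interval -0.50 to 0.43). Gstt1, the theta class enzyme, which acts on small halogenated compounds, ran from 732 to 1179 in KO and from 791 to 1185 in WT (log2 difference 0.05, 95% interval -0.53 to 0.63). For Mgst3, a membrane enzyme with peroxidase activity, lenses ran from 334 to 675 in KO and from 387 to 553 in WT (log2 difference -0.15, 95% interval -0.71 to 0.40).

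Bacterial control probe sets, 27 in number and without a target in mouse RNA, gave signals of up to 45.5. The second probe set of Mgst1 (from 1.91 up to 34.3 in KO and from 20.9 up to 41.2 in WT) and that of Mgst3 (from 1.91 up to 26.1 in KO and from 4.70 up to 43.5 in WT) lay under that level in all 7 lenses. Their differences of -0.83 and -0.30 are therefore not resolved.

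**Figure D3:**
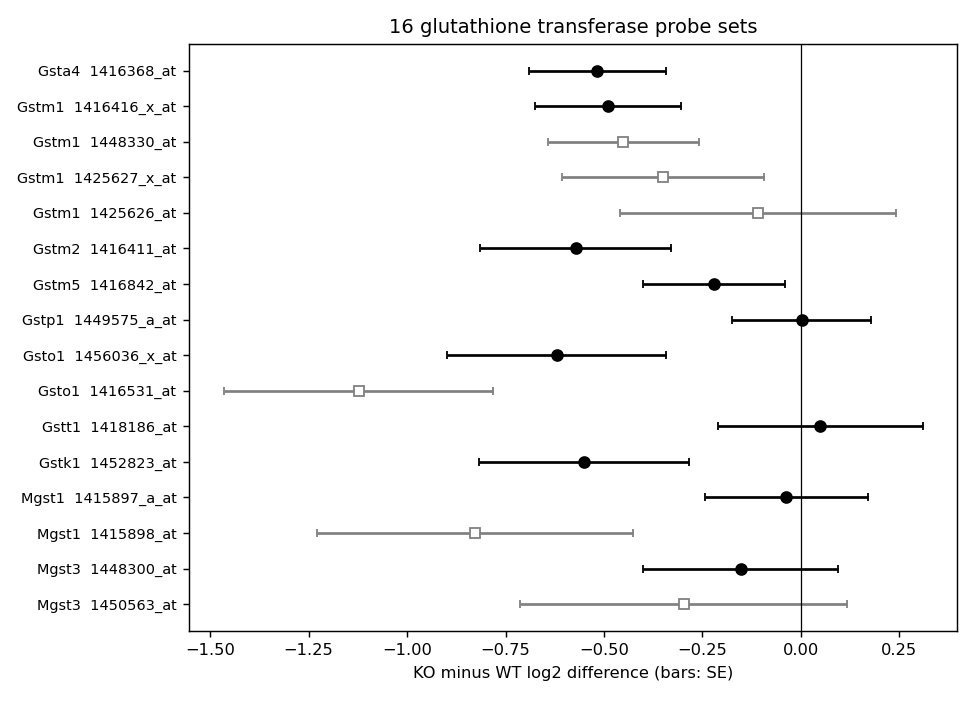
KO minus WT log2 difference with its SE (limma, n = 3 animals per group) for all 16 probe sets; filled circles are the brightest probe set of each gene and open squares the others. 14 of 16 lie below 0, where 51.6% of all probe sets did, and those 14 include the second probe sets of Mgst1 and Mgst3, at background. The differences run from -1.12 at a Gsto1 probe set to 0.05 at Gstt1, and none passed the adjusted test.

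Both eyes of KO animal 1 were measured, which gives a spread between lenses of 1 mouse. Any spread from capture, amplification and array is part of it. At 8 of the 10 genes the eyes differed more than the groups did, against 12766 of 18193 genes overall. The measures are unlike, since the eyes are 1 lens against 1 lens and the groups are means of 3 animals. A difference of single lenses is expected to vary more, so this count does not weigh eye against genotype. The median size of the difference between eyes was 0.74 on the log2 scale for the 10 genes and 0.42 for all genes. Lens 1L was 4.67-fold above 1R for Gstm2, 2.38-fold for Gstm1, 2.03-fold for Gstk1 and 2.01-fold for Mgst3. Gsto1 ran the other way, with 1R 1.90-fold above 1L. The exceptions were Gsta4, where 1L and 1R differed by -0.01, and Mgst1, where they differed by -0.03 against a group difference of -0.04.

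**Figure D4:**
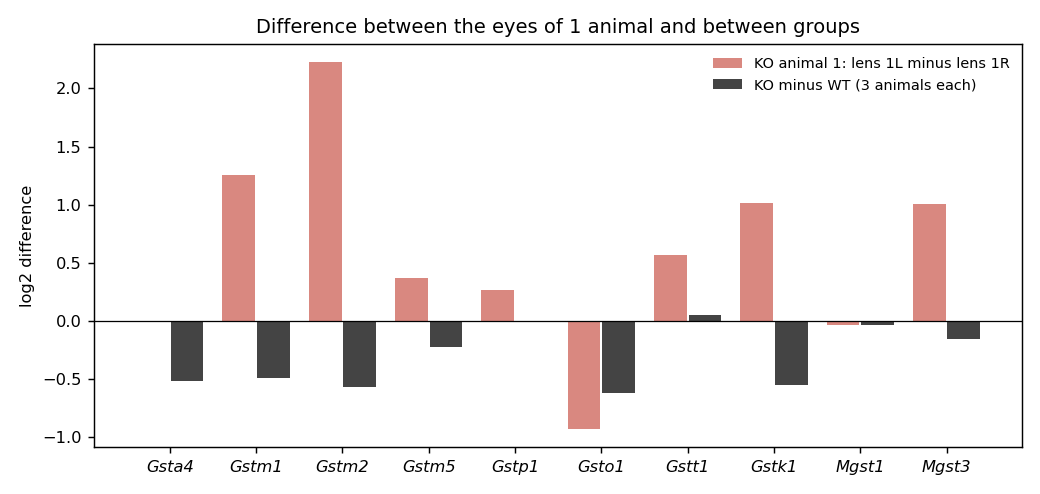
Log2 difference between lenses 1L and 1R of KO animal 1 (pink bars) beside the KO minus WT log2 difference (dark bars) for the brightest probe set of each gene. The pink bars reach 2.22 for Gstm2 and -0.93 for Gsto1, while the dark bars lie between -0.62 and 0.05.

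Over the 7 lenses, with 45 pairs of genes compared, the patterns most alike were those of Gstm2 and Mgst3 (Pearson r = 0.92) and of Gstm1 and Gstm2 (r = 0.90), followed by Gstm2 and Gstk1 (r = 0.83). Gstm5 followed Gstm1 with r = 0.64 and Gstm2 with r = 0.60. Gsto1 and Gstp1 lay most opposed (r = -0.66). These values are descriptions over 7 lenses that share arrays and, for 1L and 1R, an animal. By a rule that took the 5 most similar of 11697 other genes, Gsta4 was nearest to Dhtkd1 (r = 0.98), Fkbp4 (r = 0.96), Sparc (r = 0.96), Setmar (r = 0.95) and Tbc1d16 (r = 0.95). In all 5 the KO lenses lay below the WT lenses, as for Gsta4 itself. These genes were chosen for likeness to Gsta4 over the same lenses, so that separation came with the choice. Gstm1 was nearest to Acp6, Sult5a1, Vps26b, Suclg1 and Dennd4b (r = 0.97 to 0.98).

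Markers of neighbouring tissue varied between lenses along with some of these genes. Of 8 rod photoreceptor genes 7 were measured, and their summed signal was 78079 (1L), 46775 (1R), 53011 (4L) and 54347 (7L) in KO lenses, and 59549 (2L), 81974 (5L) and 43307 (6L) in WT lenses. All 7 were higher in 1L than in 1R, and none was at background. Lenses 1L and 5L had the highest sums and also the highest Gstm2 and Mgst3, and 1R had the lowest Gstm2 and Mgst3 with the second lowest sum. The order differed elsewhere, since 6L had the lowest sum while 7L, with a middle sum, was next lowest for both genes. Pde6g, a rod phosphodiesterase subunit, was at 12.16 ± 0.17 in KO and 12.81 ± 0.52 in WT mice (± SD, n = 3; log2 difference -0.64, SE 0.26). Of the 7 rod genes 6 had lower values in KO, and their median was -0.12. Other mu class genes had other orders. Lens 6L was the highest of the 7 lenses for Gstm5 (12.92, normalized log2), and for Gstm1 (14.20) it lay below only 1L and 5L. The part of rod material in the values of Gstm2, Mgst3 or the other mu class genes was not tested.

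For corneal and other surface epithelium all 7 genes were measured. Their summed signal, most of it from Krt12, a corneal keratin, and Aldh3a1, a corneal aldehyde dehydrogenase, was 15354 (1L), 20581 (1R), 14509 (4L) and 7353 (7L) in KO lenses, and 23279 (2L), 12207 (5L) and 18514 (6L) in WT lenses. Lenses 2L and 1R were highest and 7L was lowest, and the same 3 lenses took those places for Gsto1. The order differed elsewhere, since 5L had the second lowest sum but a normalized Gsto1 of 12.29. Gsto1 was lower in 1L (11.82) and 4L (11.99), which had larger sums. Lower values in KO were found for 6 of the 7, and the median of their log2 differences was -1.37. Upk1b, a uroplakin, was at 8.56 ± 0.21 in KO and 9.93 ± 0.44 in WT mice (± SD, n = 3). No marker of this list was at background in all 7 lenses. The part of surface epithelium in the Gsto1 difference was not tested.

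**Figure D5:**
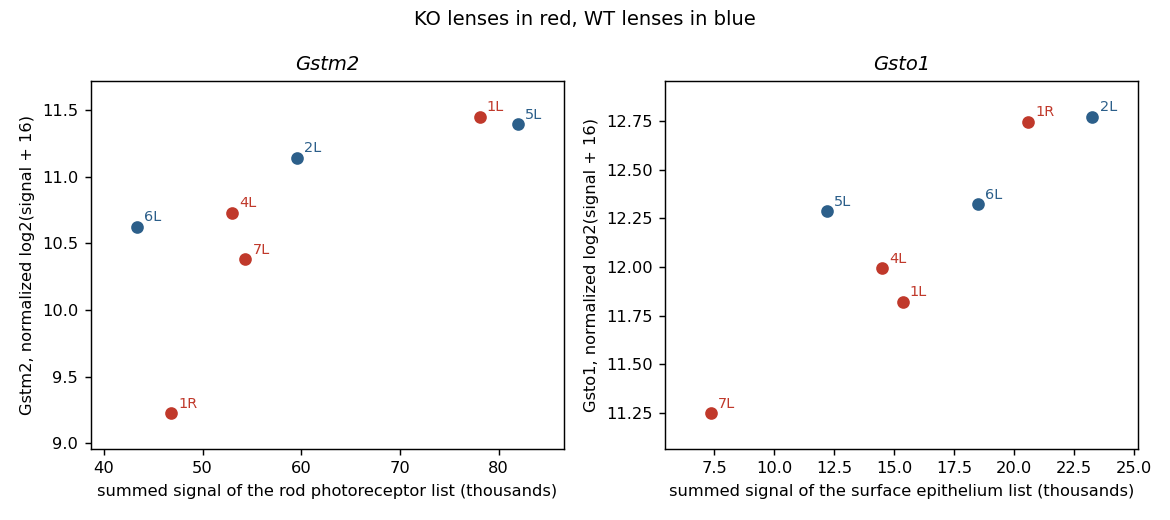
Left, Gstm2 against the summed deposited signal of 7 rod photoreceptor genes; right, Gsto1 against that of 7 surface epithelium genes, with 1 point per lens (KO red, WT blue) and the member on the normalized log2(signal + 16) scale. Lenses 1L and 5L lie at the upper right of the left panel, and lenses 1R and 2L at the upper right of the right panel with 7L at the lower left.

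Marker lists for 8 further cell types or tissues gave these counts of higher values in KO. They were 4 of 9 for lens epithelium (median log2 difference -0.06), 1 of 8 for lens fibres (median -0.16), 4 of 5 for retinal Mueller glia (median 0.47), 5 of 7 for pigment cells (median 0.70), 7 of 8 for macrophages and leukocytes (median 0.40), 6 of 6 for blood and endothelium (median 0.43), 2 of 6 for stromal fibroblasts (median -0.14) and 2 of 6 for skeletal muscle (median -0.24). Over all genes, 8299 of 18193 had higher values. Genes with a limma unadjusted p under 0.05 and higher values were 3 of glia, 3 of macrophages, 2 of blood and 1 of pigment cells. Those with such a p and lower values were 2 of pigment cells, 1 of lens fibres and 1 of macrophages. In either direction 4.07% of all genes had such a p. At background in every lens were Aif1 of the macrophage list and Hba-a1 and Pecam1 of the blood list. The part of these cell types in the transferase values was not tested.

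The other transferases differed by -0.96 to 0.51 on the log2 scale. Of 20 listed, 18 had a probe set of their own, 12 with lower and 6 with higher values in KO, a median of -0.23, and 0 past the adjusted test. At an unadjusted p under 0.05 there were 2, both lower, where 4.07% of all genes had such a p in either direction. They were Gstm7, given above, and Gstt3, a theta class enzyme. Gstt3 signals ran from 2.79 to 32.1 in KO and from 42.7 to 48.4 in WT lenses. All KO lenses and 1 WT lens lay under the highest bacterial control. Next by p came Ltc4s, the leukotriene C4 synthase, under it in every lens. All KO lenses lay beneath every WT lens on the normalized scale for 3 of the 18, namely Gstt3, Ltc4s and Gsto2. Over all genes, 541 of 18193 were separated this way. None of the 18 was separated the other way, as 457 of the 18193 genes were. Gsto2 is a dim omega class gene named after its values were seen (log2 difference -0.58, SE 0.37).

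Enzymes that make and recycle glutathione were also listed. Of 12 measured of 13 listed, 9 had lower values in KO (median -0.18), and none had an unadjusted p under 0.05. Gss, the glutathione synthetase, was at 11.89 ± 0.17 in KO and 12.30 ± 0.31 in WT mice (± SD, n = 3; log2 difference -0.42, SE 0.21). Both subunits of the rate-limiting enzyme lay slightly lower, Gclm by -0.24 (SE 0.18) and Gclc by -0.25 (SE 0.20).

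Steps after conjugation were split evenly. Of 14 measured genes for export of conjugates and their conversion to mercapturates, of 17 listed, 7 were lower and 7 higher in KO (median -0.10). Anpep, an aminopeptidase, had an unadjusted p of 0.0185 but was under the bacterial level in every lens. Acy1, an aminoacylase, differed by -0.76 (SE 0.37), and Ggt6, a member of the gamma-glutamyltransferase family, lay under that control in every lens. Abcc2 of this list also lay under it in every lens. Abcc1, the main exporter of glutathione conjugates, ran from 2360 to 3235 in KO and from 2385 to 2858 in WT (log2 difference 0.03, SE 0.20). It is named for its role and was chosen after its value had been seen.

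Aldehydes can also be removed without glutathione. Of 15 measured genes of aldehyde and dicarbonyl clearance, of 16 listed, 6 were lower and 9 higher in KO (median 0.05), and none had an unadjusted p under 0.05. Aldh1a7 differed by -0.38 (SE 0.19), Cbr1, a carbonyl reductase, by -0.37 (SE 0.23) and Aldh2, the mitochondrial aldehyde dehydrogenase, by 0.34 (SE 0.23). NRF2, encoded by Nfe2l2, is the transcription factor that drives many transferase genes through antioxidant response elements. Of 15 measured genes of its pathway, of 16 listed, 6 were lower and 9 higher (median 0.05), again with none under an unadjusted p of 0.05. The smallest p were those of Bach1, a repressor at the same elements, which differed by 0.37 (SE 0.25), and of Gclm and Gclc, given above. Those medians of 0.05 turned to values below 0 in some settings, and no list had a member past the adjusted test in limma.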

How the data were processed

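Lens epithelium of 7 lenses was measured on 1 Affymetrix mouse array per lens, 4 from 3 KO animals and 3 from 3 WT animals, per the labels. The deposited values are linear intensity values, 1 summary signal per probe set. Each array had the same mean of 500.003 or 500.004 after trimming 2% at each end, as tested on the table. For the summary software and background correction no name was given in the sources used here. The number of arrays limits the precision, and signal over background was gauged from 27 bacterial controls (0.199 to 45.5).

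64 of 45101 probe sets were controls and were left out. The rest were turned into log2(signal + 16), which understates changes of weak probe sets, and quantile normalized, and lenses 1L and 1R were averaged. Array pairs correlated at 0.944 to 0.964. KO and WT were compared with limma 3.58.1 (lmFit, eBayes with intensity trend) in R 4.3.3, two-sided, Benjamini-Hochberg over all probe sets, threshold 0.05. The code was tested on simulated data. Intervals are 95% intervals from that fit.

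Gene names came from the platform annotation, and for the 16 probe sets 0 symbols were updated from RefSeq. A gene was represented by its brightest probe set, with all probe sets of the 10 genes described. Named genes were all 10 members, Sparc, the 3 of each related list with the smallest p, and the 5 nearest in pattern to Gsta4 and Gstm1, with single marker genes to illustrate a list. The 10 genes, the 5 related lists and the 10 marker lists were chosen with earlier results of these data known. Of the marker lists, those whose lens order is given beside a member were picked after their values had been seen.

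The alternatives took each of the 7 lenses as a sample of its own, kept 1 eye of KO animal 1, centred arrays on their medians, used the deposited signals without normalization, dropped probe sets below the median level, switched off the intensity trend, weighted the arrays, set the pseudocount to 1 or 64, raised the adjusted p to 0.1, averaged the probe sets within each gene, and left out each animal.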

Additional observations from a re-analysis of the deposited data

Results flagged for a closer look

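Among the 4 KO lenses, 1 lens stood apart from the other 3 at 2 of the 16 probe sets, by a test of its gap to the nearest lens over the range of the group. At Gstp1 lens 1R was at 13.94 on the normalized log2 scale and the other KO lenses were at 14.19 to 14.24. At the brighter Mgst1 probe set lens 7L, from the male, was at 13.15 and the other KO lenses were at 12.61 to 12.68. By chance about 1 in 20 groups gives such a gap, and 16 were examined. That share assumes 4 independent lenses, while 1L and 1R come from 1 animal. The 3 WT lenses are too few for this test.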

How the results depend on the processing

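No glutathione transferase probe set passed an adjusted p of 0.05 under any alternative run, nor 0.1 in the setting that used it, and over all probe sets 2 or 3 passed. Gsta4, Gstm1, Gstm2, Gstm5, Gsto1 and Gstk1 had lower values in KO in all 17 settings. The count of 5 probe sets lower at an unadjusted p under 0.05 was 2 with the 7 lenses as independent samples, 2 without the intensity trend, 3 when lens 1L alone stood for KO animal 1 and 3 with the signals as deposited, 6 with 1R alone, 6 with a pseudocount of 1, 7 with array weights, and 2 to 6 with an animal left out, the 2 without WT animal 5 and 3 without WT animal 6. The 1 probe set with no overlap between groups became 3 with either lens of KO animal 1 alone and 1 to 6 with an animal left out, where fewer lenses make a separation easier, the 6 without KO animal 1. The number of genes lower in KO was 7 to 10. Gstp1 differed by -0.0205 with the 7 lenses as independent samples, -0.042 when lens 1R alone stood for KO animal 1, -0.079 with median centring and -0.047 with array weights, and by -0.069 to 0.081 with an animal left out. Gstt1 differed by -0.045 with 1R alone, -0.059 with median centring and -0.053 with array weights, and by -0.13 to 0.24 with an animal left out. Mgst1 ran from -0.21 to 0.062 with an animal left out, and was at -0.43 as the mean of both its probe sets, 1 of them at background. Mgst3 was at 0.015 with 1L alone and -0.32 with 1R alone, and at -0.28 to -0.038 with an animal left out. The cause of these shifts was not tested. The medians of the NRF2 and aldehyde lists, 0.05 each, were -0.014 and -0.037 with median centring. With an animal left out the medians ran from -0.053 (WT 5) to 0.22 (WT 6) for aldehyde clearance, -0.0057 (KO 4) to 0.081 (KO 1) for NRF2, -0.18 (WT 2) to -0.027 (WT 6) for conjugate export, -0.27 (KO 7) to -0.10 (KO 1) for glutathione supply and -0.43 (WT 6) to -0.16 (KO 7) for the other transferases. The filter on low values left out the second probe sets of Mgst1 and Mgst3, and no other probe set of the 10 genes. With that filter the median for conjugate export was -0.21, and with array weights it was -0.009.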
